A study of Arabidopsis thaliana with 9 samples.

Results

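Myrosinases, specifier proteins and ER-body glucosidases decide how glucosinolates are broken down when plant tissue is damaged. The 10 genes described here were chosen by locus identifier from the 25199 loci of the deposited table, and all 10 were present and passed the filter on low values. They are the leaf myrosinases TGG1 and TGG2, the atypical myrosinase PEN2, the specifier genes ESP, ESM1 and NSP1, and the ER-body genes PYK10, BGLU21, NAI1 and NAI2. RNA was sequenced from whole 7-day-old Arabidopsis thaliana seedlings that had grown untreated on plates in long days. There were 3 groups with 3 biological replicates each, all labelled with the accession Enkheim (En2): En2 wild type, plants with RAV1 over-expression, and the mutant bes1-D, in which the brassinosteroid transcription factor BES1 carries a gain-of-function change. The labels state neither the promoter that drives RAV1 nor how many independent lines there were, nor whether replicates were separate sowings, so the spread between replicates may be partly technical.

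Glucosinolates are sulfur-containing glucosides of the cabbage order. Myrosinases are thioglucosidases kept in separate cells or compartments, and once tissue is crushed they cut off the glucose. The unstable product rearranges to an isothiocyanate unless a specifier protein diverts it to a nitrile or an epithionitrile. ER bodies are spindle-shaped compartments derived from the endoplasmic reticulum, common in the roots, hypocotyls and cotyledons of Brassicaceae seedlings, and they are packed with beta-glucosidases of which PYK10 is the main one in the root. RAV1 is known to bind paired elements, CAACA with a nearby CACCTG, and BES1 to bind E-boxes (CANNTG) and the brassinosteroid response element CGTGTG or its variant CGTGCG. MYC-type bHLH factors bind the G-box CACGTG.

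As a check of the labels, RAV1 measured 71.4 to 99.0 FPKM (fragments scaled by transcript length and library size) in wild type, 756 to 1426 in its over-expression line and 33.2 to 58.3 in bes1-D. BES1 measured 95.5 to 121 FPKM in wild type, 52.4 to 73.5 in RAV1 over-expression and 136 to 182 in bes1-D. A gain-of-function change need not alter the transcript level, so the BES1 values do not check the bes1-D label. With FPKM alone the absolute depth is unknown. A relative depth read from the steps of low values lay between 82.9% and 113% of En2 wild type replicate 1. Over all loci tested the median log2 difference was 0.09 in RAV1 over-expression against wild type, -0.06 in bes1-D against wild type and 0.19 between the lines. Median-of-ratios scaling removed these shifts (medians 0.00, 0.01 and 0.02). It turned the calls in RAV1 over-expression from 2960 higher and 1581 lower to 1893 higher and 2183 lower, and those between the lines from 5520 and 2084 to 2404 and 3103. In bes1-D it turned them from 433 and 1139 to 659 and 695. Markers of tissue differed between groups too. The 8 leaf photosynthesis genes summed to 43972 to 46845 FPKM in wild type, to 20556 to 30670 in RAV1 over-expression and to 48582 to 53849 in bes1-D. All 8 fell in RAV1 over-expression, where 8.01% of all loci tested were lower. The 10 root markers summed to 85.1 to 92.6 FPKM in wild type, to 102 to 108 in RAV1 over-expression and to 57.4 to 66.2 in bes1-D. In RAV1 over-expression 3 of the 10 rose (EXPA7, SCR and SHR), against 15.0% of all loci. Differences were positive for 5 and negative for 5, with a median log2 difference of 0.02, so the higher sum came from a few genes. In bes1-D all 10 differences were negative (median -0.40) and 4 fell (EXPA7, COBL9, CASP1 and RHD6), against 5.77% of all loci. The 9 seed maturation genes summed to 17.7 to 34.4 FPKM in wild type, to 137 to 1642 (replicate 3) in RAV1 over-expression and to 21.9 to 35.5 in bes1-D, and SESA1 was at 0 in all bes1-D libraries. RAV1 over-expression replicate 3 stood apart, with 23 loci at least 3-fold (on FPKM + 1) above all other libraries, against 0 to 2 in each of the others. No marker of leaf or root was at 0 in every library of a group. Whole seedlings were used, so fewer cells of a type and less RNA per cell cannot be told apart, and the part of tissue makeup in the results below was not tested.

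Upstream sequences are shown for the tandem pairs TGG1 and TGG2, and BGLU21 and BGLU22, for ESP, which was called in every comparison, and for NAI2, whose window alone among the 10 genes holds a G-box. The first pair had differences of opposite sign in RAV1 over-expression and the second of the same sign. Each window is the 250 bases before the annotated gene start in RefSeq's TAIR10.1 assembly, which is from the accession Columbia and not from En2, written 5′ to 3′ on the gene's strand. TGG1 lies on the minus strand and its window is chr5:9082385-9082634. TGG2 lies on the plus strand at chr5:9072458-9072707. Capitals mark the longest run of bases that both windows share, 21 bases.
TGG1: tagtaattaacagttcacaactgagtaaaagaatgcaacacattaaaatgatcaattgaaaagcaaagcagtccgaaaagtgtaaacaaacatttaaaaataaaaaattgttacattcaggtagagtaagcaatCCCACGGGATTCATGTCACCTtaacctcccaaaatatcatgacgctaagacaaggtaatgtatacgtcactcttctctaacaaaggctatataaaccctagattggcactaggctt
TGG2: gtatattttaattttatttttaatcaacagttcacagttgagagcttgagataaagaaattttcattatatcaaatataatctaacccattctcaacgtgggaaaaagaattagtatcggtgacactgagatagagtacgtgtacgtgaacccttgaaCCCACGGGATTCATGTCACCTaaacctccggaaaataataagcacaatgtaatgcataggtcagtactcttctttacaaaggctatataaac
The run began 116 bases before the start of TGG1 and 92 bases before that of TGG2.

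The next windows show in capitals the 5 motifs named above other than the general E-box, searched on either strand. They are BGLU21 (chr1:24703167-24703416, minus strand), BGLU22 (chr1:24709997-24710246, minus strand), ESP (chr1:20173950-20174199, minus strand) and NAI2 (chr3:5402654-5402903, minus strand).
BGLU21: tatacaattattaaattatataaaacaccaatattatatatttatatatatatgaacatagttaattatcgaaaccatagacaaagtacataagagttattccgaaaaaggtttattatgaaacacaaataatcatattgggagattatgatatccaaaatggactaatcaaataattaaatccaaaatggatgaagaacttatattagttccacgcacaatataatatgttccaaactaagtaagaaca
BGLU22: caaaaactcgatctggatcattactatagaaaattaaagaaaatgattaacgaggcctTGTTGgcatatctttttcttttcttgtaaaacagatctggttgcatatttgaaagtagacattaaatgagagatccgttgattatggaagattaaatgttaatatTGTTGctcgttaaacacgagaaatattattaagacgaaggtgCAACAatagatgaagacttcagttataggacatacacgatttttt
ESP: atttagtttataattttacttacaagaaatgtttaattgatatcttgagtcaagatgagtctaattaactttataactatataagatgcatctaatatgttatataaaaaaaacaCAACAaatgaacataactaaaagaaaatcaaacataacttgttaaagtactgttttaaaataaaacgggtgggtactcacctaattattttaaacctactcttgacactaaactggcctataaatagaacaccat
NAI2: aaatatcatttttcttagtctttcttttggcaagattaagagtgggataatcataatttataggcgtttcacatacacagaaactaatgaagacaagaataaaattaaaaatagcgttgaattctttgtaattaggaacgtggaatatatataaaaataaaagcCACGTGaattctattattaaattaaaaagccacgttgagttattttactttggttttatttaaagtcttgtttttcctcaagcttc
BGLU21 held none of the motifs and BGLU22 held CAACA in 3 places. The levels of both genes were higher in RAV1 over-expression than in wild type, but how reads were divided between them is uncertain. Any link of these motifs to levels was not tested. CAACA was present upstream of 5 of the 10 genes (TGG1, TGG2, ESP, ESM1 and NSP1), against 47.4% of 27443 protein-coding genes. The G-box was present upstream of NAI2 alone among the 10, 86 bases before its start, against 6.49% of all genes. The element CACCTG was in none of the 10 windows, against 2.57% of all genes, and neither were the element CGTGTG (5.37% of all genes) and its variant CGTGCG (1.57%).

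Of the leaf myrosinases TGG1 rose in RAV1 over-expression, while the difference of TGG2 was negative and narrowly missed the test. TGG1 (AT5G26000, chromosome 5, 9079452 to 9082384), the more abundant myrosinase of leaves and a major protein of guard cells, measured 274, 319.6 and 250.3 FPKM in En2 wild type replicates 1 to 3. It measured 464, 379.7 and 565 FPKM in RAV1 over-expression and 314, 331 and 379 in bes1-D. Every RAV1 over-expression library lay above every other library, while wild type and bes1-D overlapped. TGG1 rose 1.67-fold in RAV1 over-expression, starting from 281 ± 35.3 and reaching 470 ± 92.9 FPKM (SD, n = 3; log2 change 0.73, SE 0.15, limma with Benjamini-Hochberg adjustment over 19740 loci, adjusted p = 0.00707). Omitting single libraries kept the call (adjusted p between 0.00201 and 0.0293). In bes1-D the difference did not pass (0.28, 95% interval from -0.05 to 0.61, adjusted p = 0.291).

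TGG2 (AT5G25980, chromosome 5, 9072708 to 9075777), its neighbour in the genome, encodes a myrosinase of phloem-associated myrosin cells. It measured 41.8, 43.9 and 35.4 FPKM in wild type, against 29.15, 34.3 and 17.95 in RAV1 over-expression and 52.4, 50.2 and 47.9 in bes1-D. The 3 groups did not overlap: RAV1 over-expression was lowest and bes1-D highest. The difference of RAV1 over-expression from wild type narrowly missed the test (log2 change -0.60, SE 0.19, adjusted p = 0.051). It passed in 5 of 16 alternatives. These were median-of-ratios scaling (-0.70, adjusted p = 0.0344), quantile normalization, a filter of 5 FPKM, the replicate block and the omission of RAV1 over-expression replicate 2 (adjusted p = 0.0115). Every other omission of 1 library left it short of the threshold (adjusted p up to 0.150). Between the lines TGG2 was lower in RAV1 over-expression (-0.91, SE 0.19, adjusted p = 0.00582). The coding sequences of TGG1 and TGG2 were 82.8% identical over 1603 aligned bases, and the labels do not say how reads that match both were counted.

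The ratio of TGG1 to TGG2 therefore separated the over-expression line. It was 6.55 to 7.28 in wild type and 5.997 to 7.91 in bes1-D, but 11.1, 15.9 and 31.5 in RAV1 over-expression replicates 2, 1 and 3. Replicate 3 had the highest ratio and also the highest RAV1 level of the 3 (1426 FPKM), and it is the library with the 23 outlying loci and the highest sum of seed maturation genes, whose part in the ratio was not tested. FAMA and NIT2, described below, were highest in it too (11.4 and 28.2 FPKM). Without it, the log2 difference of TGG2 from wild type was -0.34 (adjusted p = 0.0904) and that of TGG1 0.58 (adjusted p = 0.0218). Of the guard cell markers MYB60, KAT1, SLAC1 and HT1 none was called in RAV1 over-expression, where they summed to 14.1 to 22.1 FPKM against 13.7 to 20.0 in wild type (1 was lower at an unadjusted p under 0.05). FAMA, a bHLH factor of guard cells and myrosin cells, rose there from 4.41 to 8.62 FPKM (log2 change 0.78, adjusted p = 0.0434). That call was lost without 6 of the 9 libraries, left out in turn (adjusted p up to 0.149), and under median-of-ratios scaling (0.0672).

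PEN2 (AT2G44490, chromosome 2, 18364652 to 18367835), an atypical myrosinase that cleaves indole glucosinolates in pathogen defence, was called in none of the 3 comparisons. It measured 80.0, 103 and 111 FPKM in wild type, against 118, 112 and 115 in RAV1 over-expression and 92.6, 131 and 129 in bes1-D. The log2 differences from wild type were 0.24 (95% interval from -0.09 to 0.57) and 0.26 (from -0.07 to 0.59). The RAV1 over-expression libraries lay just above the wild-type ones, and both overlapped bes1-D. None of its comparisons had an unadjusted p under 0.05 (from 0.115 to 0.908).

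**Figure D1:**
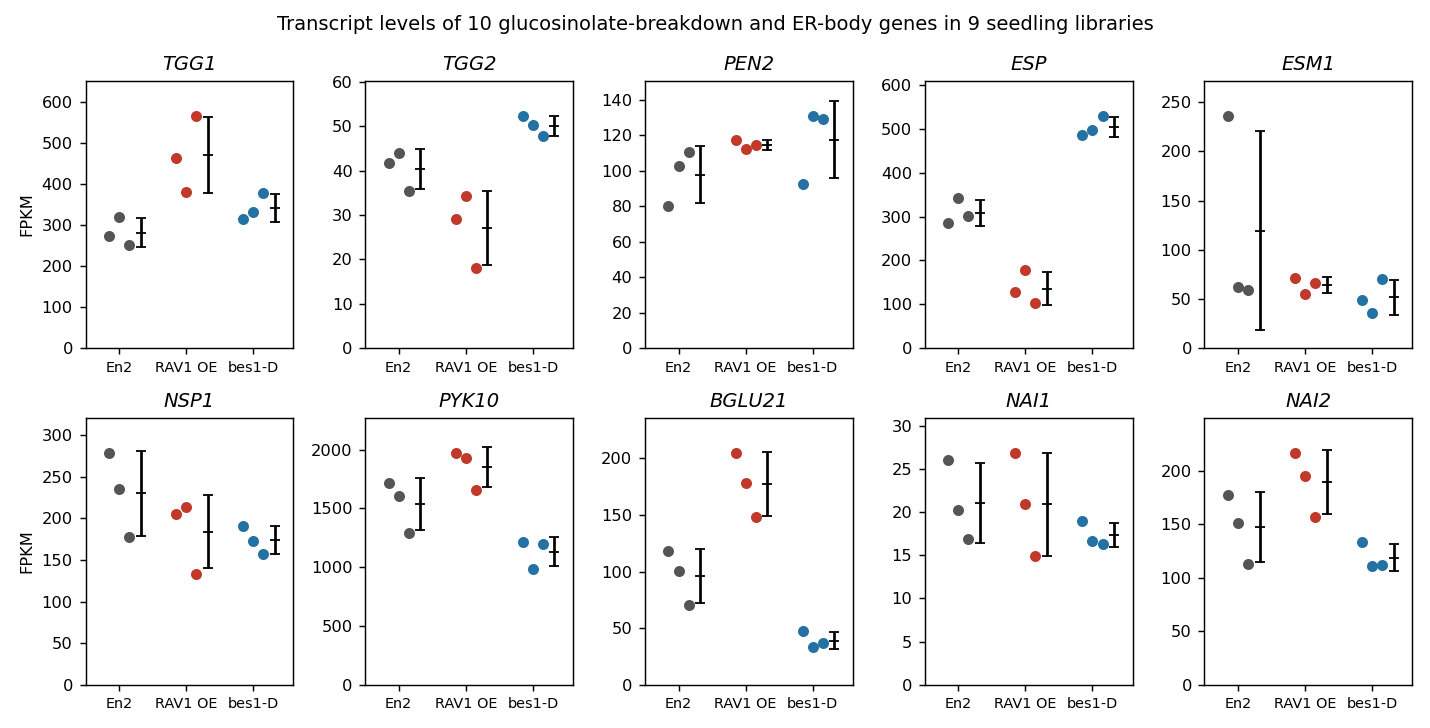
FPKM (vertical axis, linear, from 0) of each of the 10 genes in the 9 libraries, with En2 wild type in grey, RAV1 over-expression in red and bes1-D in blue, points in replicate order and bars for mean and SD of 3 libraries. ESP lies lowest in red (102 to 177 FPKM) and highest in blue (486 to 529.8), BGLU21 the other way round, and ESM1 has 1 high wild-type library at 236 FPKM.

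Among the specifier genes, ESP moved in both lines and in opposite directions. ESP (AT1G54040, chromosome 1, 20170715 to 20173949) encodes the epithiospecifier protein, which turns glucosinolate breakdown from isothiocyanates to nitriles and epithionitriles. It measured 284, 342 and 301 FPKM in wild type, against 129, 177 and 102 in RAV1 over-expression and 486, 497 and 529.8 in bes1-D, and the 3 groups did not overlap. ESP fell in RAV1 over-expression, where its mean was 56.0% lower (log2 change -1.21, SE 0.17, adjusted p = 0.00123). It was 1.63-fold the wild-type level in bes1-D (log2 change 0.71, SE 0.17, adjusted p = 0.0317). The call in RAV1 over-expression held under all 16 alternatives (adjusted p up to 0.00809). The call in bes1-D was lost without any 1 library of wild type or of bes1-D, or of RAV1 over-expression replicate 1 (adjusted p between 0.0539 and 0.106), and without a filter on low values (0.0521). Under each of those settings BGLU21 was the only one of the 10 genes called in bes1-D. Between the lines ESP differed by -1.92 on the log2 scale (SE 0.17, adjusted p = 5.87e-05).

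NSP1 (AT3G16400, chromosome 3, 5566083 to 5568545), a nitrile-specifier protein, and ESM1 (AT3G14210, chromosome 3, 4729399 to 4731847), the epithiospecifier modifier that favours isothiocyanates, were not called. NSP1 measured 279, 235 and 177 FPKM in wild type, against 205, 214 and 133 in RAV1 over-expression and 191, 173 and 157 in bes1-D, and all groups overlapped. Its coding sequence is 94.8% identical to that of its neighbour NSP4 and 92.2% to that of NSP3, so the share of reads each gene received is uncertain. The ratio of ESP to NSP1 transcripts ran from 1.02 to 1.70 in wild type, from 0.628 to 0.829 in RAV1 over-expression and from 2.54 to 3.37 in bes1-D.

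ESM1 differed most between replicates. It measured 236, 62.1 and 59.5 FPKM in wild type replicates 1 to 3, 71.55, 55.2 and 66.3 in RAV1 over-expression and 48.7, 35.55 and 70.2 in bes1-D. Wild type replicate 1 was 3.30 times the next highest library. Only 2 of the 19740 loci tested stood at least 3-fold (on FPKM + 1) above all other libraries in that replicate, ESM1 and AT3G06125. With it, the log2 difference of RAV1 over-expression from wild type was -0.57 (SE 0.49, adjusted p = 0.421), and without it 0.07 (adjusted p = 0.862). ESM1 therefore gave no usable comparison with wild type.

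The ER-body genes were highest in RAV1 over-expression and lowest in bes1-D by their means, except NAI1, but only BGLU21 passed the test against wild type. PYK10 (AT3G09260, chromosome 3, 2840477 to 2843781), the main ER-body beta-glucosidase of roots, which also acts on indole glucosinolates, was the most abundant of the 10 genes in every library. It measured 1716, 1602 and 1295 FPKM in wild type, against 1974, 1926 and 1654.5 in RAV1 over-expression and 1211, 988 and 1196 in bes1-D. It ranked 36th to 51st among all loci in wild type, 10th to 20th in RAV1 over-expression and 61st to 85th in bes1-D. All bes1-D libraries lay below all others, while wild type and RAV1 over-expression overlapped. The log2 differences from wild type did not pass the test in RAV1 over-expression (0.27, SE 0.13, adjusted p = 0.158) or in bes1-D (-0.44, SE 0.13, adjusted p = 0.0711). Of 16 alternatives only quantile normalization, which forces all libraries to 1 distribution, called the first (0.87, adjusted p = 0.00131). Median-of-ratios scaling made it smaller (0.17, adjusted p = 0.412). Between the lines PYK10 was 1.64-fold higher in RAV1 over-expression (0.71, adjusted p = 0.00271), and the call held under all 16 alternatives.

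BGLU21 (AT1G66270, chromosome 1, 24699868 to 24703166), a close relative of PYK10 found in root ER bodies, showed the largest difference between the lines among the 10 genes. It measured 118, 101 and 70.9 FPKM in wild type, against 205, 178 and 148 in RAV1 over-expression and 47.25, 33.2 and 36.5 in bes1-D, with no overlap between any 2 groups. BGLU21 rose 1.84-fold in RAV1 over-expression (log2 change 0.89, SE 0.20, adjusted p = 0.0111) and fell by 1.27 on the log2 scale in bes1-D (SE 0.20, adjusted p = 0.00598). Both calls held under all 16 alternatives, with adjusted p up to 0.0478 and 0.0295. Between the lines it differed 4.54-fold (2.16, SE 0.20, adjusted p = 8.12e-05). Its tandem copy BGLU22 is 93.3% identical in coding sequence, and the FPKM of BGLU21 was 0.967 to 1.42 times that of BGLU22 in the 9 libraries, so how reads were divided between them is uncertain. PYK10 was 14.5 to 18.3 times BGLU21 in wild type, 9.62 to 11.2 times in RAV1 over-expression and 25.6 to 32.8 times in bes1-D. The 3 groups did not overlap in this ratio.

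NAI2 (AT3G15950, chromosome 3, 5397541 to 5402653), a protein needed to form ER bodies, kept a narrow ratio to PYK10. It measured 178, 151 and 113 FPKM in wild type, against 217, 195 and 157 in RAV1 over-expression and 133, 111 and 112 in bes1-D. PYK10 stayed between 8.90 and 11.5 times NAI2 in all 9 libraries. NAI2 differed between the lines (log2 difference 0.66, SE 0.17, adjusted p = 0.0126), but not from wild type in either (0.37, adjusted p = 0.137, and -0.29, adjusted p = 0.338). In RAV1 over-expression the difference from wild type was called in 1 of 16 alternatives, the replicate block (adjusted p = 0.0335). The call between the lines was lost without RAV1 over-expression replicate 1 (adjusted p = 0.0526) and under median-of-ratios scaling (0.0664). NAI1 (AT2G22770, chromosome 2, 9684562 to 9686613), the bHLH factor that activates PYK10 and NAI2, was the least abundant of the 10 genes. It measured 25.99, 20.2 and 16.8 FPKM in wild type, against 26.9, 20.9 and 14.95 in RAV1 over-expression and 18.9, 16.7 and 16.3 in bes1-D. All groups overlapped, and NAI1 was called in no comparison (log2 differences from wild type -0.02, 95% interval from -0.47 to 0.43, and -0.25, from -0.70 to 0.20).

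**Figure D2:**
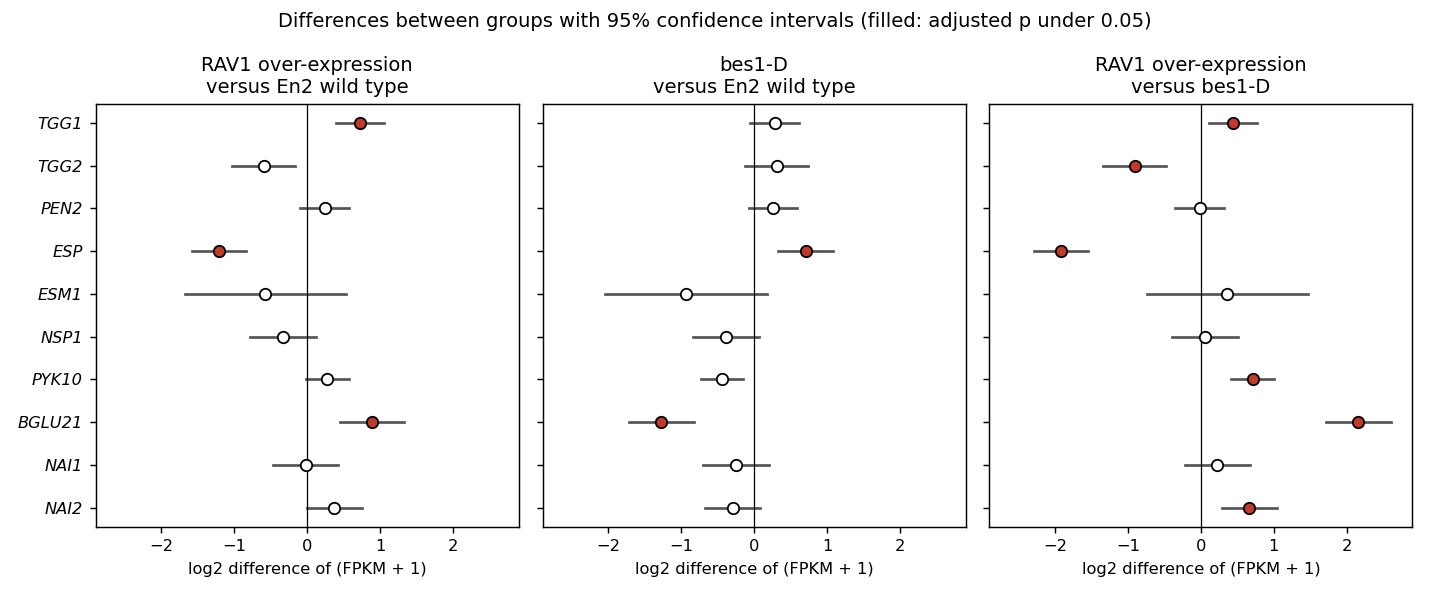
Log2 difference of FPKM + 1 (horizontal axis) for each of the 10 genes in the 3 comparisons, with 95% confidence intervals not adjusted over genes and filled points for genes called at an adjusted p under 0.05. BGLU21 is filled in all 3 panels (0.89, -1.27 and 2.16), as is ESP (-1.21, 0.71 and -1.92), while PEN2, ESM1, NSP1 and NAI1 are open throughout.

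In all, 2 of the 10 genes rose in RAV1 over-expression and 1 fell, where 15.0% of all loci tested were higher and 8.01% lower (23.0% either way). In bes1-D 1 rose and 1 fell, where 2.19% of all loci were higher and 5.77% lower (7.96% either way). Between the lines 4 were higher in RAV1 over-expression (TGG1, PYK10, BGLU21 and NAI2) and 2 lower (TGG2 and ESP), against 28.0% and 10.6% of all loci (38.5% either way). Read against these shares, counts of 1 to 4 among 10 genes do not set them apart from other loci. TGG1 lost that call under median-of-ratios scaling (adjusted p = 0.222), without a filter (0.0554), when only these groups were fitted (0.0591) and without 5 of the 9 libraries: En2 wild type replicate 1, RAV1 over-expression replicates 1 and 3, and bes1-D replicates 1 and 2 (adjusted p from 0.0528 to 0.126). The 3 comparisons share libraries and are not independent of each other. The median log2 difference of the 10 genes was 0.11 in RAV1 over-expression, -0.27 in bes1-D and 0.29 between the lines, beside 0.09, -0.06 and 0.19 over all loci.

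Set side by side, the leaf myrosinases and the root ER-body genes had opposite signs in bes1-D but mixed signs in RAV1 over-expression. In RAV1 over-expression the leaf genes TGG1 and TGG2 had log2 differences of 0.73 and -0.60, and the ER-body genes PYK10, BGLU21, NAI1 and NAI2 of 0.27, 0.89, -0.02 and 0.37. In bes1-D the leaf genes had 0.28 and 0.31, and the ER-body genes -0.44, -1.27, -0.25 and -0.29. All 4 ER-body genes were thus negative and both leaf genes positive in bes1-D, although BGLU21 was the only one of the 6 called. The ratio of PYK10 to TGG1 was 5.01 to 6.27 in wild type, 2.93 to 5.07 in RAV1 over-expression and 2.99 to 3.86 in bes1-D. On the log2 scale bes1-D differed from wild type by -0.72 (1.73 ± 0.19 against 2.44 ± 0.17, SD, n = 3), with no overlap and a two-sided exact permutation p of 0.1, the smallest that 3 against 3 libraries allow. In RAV1 over-expression it was 1.99 ± 0.40 (difference -0.45, exact permutation p = 0.2), and between the lines the difference was 0.27 (exact permutation p = 0.4). Of 3 such comparisons none can reach 0.05. All 10 root markers, like the 4 ER-body genes, had negative differences in bes1-D, while in RAV1 over-expression the root markers were divided, 5 positive and 5 negative. Their part in the ratio was not tested.

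**Figure D3:**
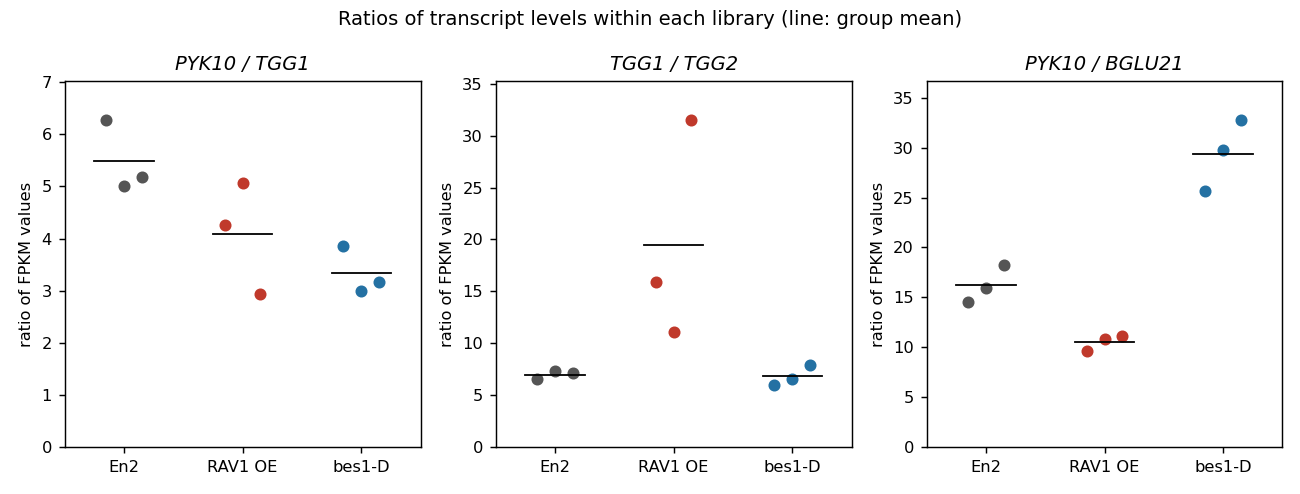
Ratio of FPKM values (vertical axes, from 0) within each of the 9 libraries for 3 pairs of genes, with a line at each group's mean. PYK10 over TGG1 is lowest on average in bes1-D (2.99 to 3.86), TGG1 over TGG2 is highest in RAV1 over-expression (11.1 to 31.5), and PYK10 over BGLU21 separates all 3 groups.

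In wild type the order of levels was PYK10 (1537.5 ± 218 FPKM), ESP (309 ± 29.5), TGG1 (281 ± 35.3), NSP1, NAI2, ESM1, PEN2, BGLU21, TGG2 (40.4 ± 4.46) and NAI1 (21.0 ± 4.63; SD, n = 3). Neighbours from ESP down to BGLU21 overlapped in their libraries, while PYK10, TGG2 and NAI1 stood clear. In RAV1 over-expression ESP came below PYK10, TGG1, NAI2, NSP1 and BGLU21, and its libraries overlapped those of BGLU21. In bes1-D BGLU21 came below TGG2, and ESP lay clear of both PYK10 and TGG1. The 10 genes together made up 0.262% to 0.353% of all FPKM in wild type, 0.334% to 0.386% in RAV1 over-expression and 0.258% to 0.290% in bes1-D.

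Other genes of the pathway were read from lists of 44 genes (42 found in the table, 35 tested). In RAV1 over-expression 13 rose and 4 fell, against 15.0% and 8.01% of all loci, with a median log2 difference of 0.39. JAL22, MYC3, NIT2 and PCS1 kept the call there without any 1 library, and the other 13 lost it without at least 1. That count depended on the libraries and the scaling: it was 4 and 1 without En2 wild type replicate 2, 6 and 4 without its replicate 3, 5 and 3 without RAV1 over-expression replicate 1, and 5 and 4 under median-of-ratios scaling. In bes1-D 6 fell and none rose by limma (2 were higher and 14 lower at an unadjusted p under 0.05), against 5.77% and 2.19% of all loci, with a median of -0.30. JAL22, MEB2 and TGG5 kept the call without any 1 library. The number that fell was 3 without En2 wild type replicates 1 or 2 or bes1-D replicate 2. Between the lines 19 were higher in RAV1 over-expression and 1 lower, against 28.0% and 10.6%, with a median of 0.46 beside 0.19 over all loci (13 and 2 under median-of-ratios scaling).

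The root myrosinases TGG4 and TGG5, BGLU22 and MEB2 had, like BGLU21, their highest mean in RAV1 over-expression and their lowest in bes1-D. TGG4 and TGG5, myrosinases expressed in roots, share 97.7% of their coding sequence and cannot be separated with confidence. TGG4 measured 23.6, 18.15 and 21.2 FPKM in wild type, against 32.1, 34.6 and 28.2 in RAV1 over-expression and 13.7, 12.6 and 16.9 in bes1-D, with no overlap. TGG5 fell in bes1-D from 45.8 to 28.0 FPKM (log2 change -0.71, adjusted p = 0.00921), and TGG4 differed there by -0.51 (adjusted p = 0.0435). The call of TGG4 was lost without 6 of the 9 libraries left out in turn and under median-of-ratios scaling (adjusted p = 0.0833). TGG4 rose in RAV1 over-expression (0.57, adjusted p = 0.013, up to 0.0572 without 1 library). BGLU22 rose in RAV1 over-expression from 79.4 to 168 FPKM (1.13, adjusted p = 0.017, up to 0.064 without 1 library). MEB2, a membrane protein of ER bodies, fell in bes1-D from 8.05 to 4.62 FPKM (-0.70, adjusted p = 0.0122). It was higher in RAV1 over-expression (0.45, adjusted p = 0.034, up to 0.123 without 1 library and 0.0977 under median-of-ratios scaling). MEB1, its relative, differed between the lines (34.9 FPKM with RAV1 over-expressed against 19.9 in bes1-D, 0.77, adjusted p = 0.0074), a call that every omission of 1 library kept. TSA1, a relative of NAI2, fell in bes1-D from 3.803 to 1.66 FPKM (-0.85, adjusted p = 0.0292, up to 0.105 without 1 library). BGLU18, the glucosidase of wound-induced ER bodies in leaves, went the other way from BGLU21 in RAV1 over-expression, from 28.9 to 15.1 FPKM (-0.95, adjusted p = 0.0304, up to 0.103 without 1 library), and BGLU25 rose there from 17.4 to 26.05 (0.53, adjusted p = 0.0331, up to 0.117 without 1 library and 0.0667 under median-of-ratios scaling).

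Jacalin lectins and GDSL lipase-like proteins gather in a complex with PYK10 when tissue is broken. Of the 10 tested, 2 rose (JAL33 and MVP1) and 2 fell (JAL22 and JAL23) in RAV1 over-expression, and 1 fell in bes1-D (JAL22), against 15.0% of all loci higher and 8.01% lower in the first and 5.77% lower in the second. JAL33 kept its call in 1 of 9 omissions of a library (adjusted p up to 0.155) and lost it under median-of-ratios scaling (0.134), as did MVP1 (0.0506). JAL23 measured 3.76 FPKM in wild type and 1.45 in the over-expressing plants (-0.99, adjusted p = 0.0169, up to 0.0612 without 1 library). Between the lines 6, against 28.0% of all loci, were higher in RAV1 over-expression: JAL34 (209 against 74.5 FPKM, log2 difference 1.501, adjusted p = 0.00181), GLL22 (212 against 106, 0.99, adjusted p = 0.00165), JAL31, JAL33, MVP1 and PBP1, the PYK10-binding lectin (1062 against 739 FPKM, 0.52, adjusted p = 0.032). PBP1 lost that call in 4 of 9 omissions of a library (adjusted p up to 0.124) and under median-of-ratios scaling (0.33, adjusted p = 0.173), and MVP1 in 2 of 9 and under that scaling (0.206). JAL22 fell in both lines, from 101 FPKM to 47.8 in RAV1 over-expression (-1.08, adjusted p = 0.000836) and to 52.8 in bes1-D (-0.92, adjusted p = 0.00474). Both comparisons use the same wild-type libraries. Of the myrosinase-binding proteins 1 was tested, MBP1, with 0.517 FPKM in RAV1 over-expression and a higher 1.88 in bes1-D (log2 difference -0.93, adjusted p = 0.0269). That call was kept in 6 of 9 omissions of a library (adjusted p up to 0.09) and under median-of-ratios scaling (0.0215). MBP1 lay near the filter: outside bes1-D it reached 1 FPKM only in En2 wild type replicate 1 (1.8). Without the bes1-D libraries it would not have been tested.

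Downstream of the myrosinases, the nitrilase NIT2, which converts nitriles to acids, rose in RAV1 over-expression from 7.45 to 20.2 FPKM (log2 change 1.28, adjusted p = 0.0117). NIT3 rose from 22.3 to 30.6 FPKM (0.44, adjusted p = 0.0189, up to 0.079 without 1 library and 0.0624 under median-of-ratios scaling), while NIT1, the most abundant nitrilase, averaged 1301 FPKM in wild type but 1381 in that line (0.08, adjusted p = 0.619). The nitrile-specifier gene NSP5 was also higher there (0.46, adjusted p = 0.0477). That call was kept in 2 of 9 omissions of a library (adjusted p up to 0.158) and lost under median-of-ratios scaling (0.115) and quantile normalization (0.0894). Of 4 partners of PEN2, the transporter PEN3 (0.44, adjusted p = 0.0246, up to 0.0882 without 1 library and 0.0743 under median-of-ratios scaling) and the phytochelatin synthase PCS1 (0.49, adjusted p = 0.0105) rose in RAV1 over-expression, against 15.0% of all loci, and none was called in bes1-D (1 was higher at an unadjusted p under 0.05). Among the bHLH regulators, MYC2, MYC3 and MYC4 activate glucosinolate and jasmonate-response genes. MYC3 rose in RAV1 over-expression from 17.4 to 24.7 FPKM (0.48, adjusted p = 0.0125), and MYC4 fell from 5.46 to 3.49 (-0.52, adjusted p = 0.02, up to 0.0707 without 1 library). MYC2 fell in bes1-D from 24.6 to 16.3 FPKM (-0.56, adjusted p = 0.0379, up to 0.126 without 1 library and 0.0748 under median-of-ratios scaling). Jasmonate induces ER bodies, and the 4 jasmonate and wound markers summed to 249.7 to 305 FPKM in wild type, 778 to 946 in RAV1 over-expression and 97.8 to 150.1 in bes1-D. Most of that sum was LOX2, a lipoxygenase of jasmonate synthesis, with a mean of 230.3 FPKM for wild type, 818 for RAV1 over-expression and 105 for bes1-D. The list was divided in RAV1 over-expression, where LOX2 (log2 change 1.82, adjusted p = 0.000321) and JAZ1 (0.94, adjusted p = 0.0191) rose and VSP1 (-2.36, adjusted p = 0.00115) fell. VSP2 was lower there too (-1.09, adjusted p = 0.0286), but it reached 1 FPKM only in the wild-type libraries (1.03 to 2.8). Without the wild-type libraries VSP2 would not have been tested. In bes1-D all 4 differences were negative and LOX2 fell. Their part in the levels of ER-body genes was not tested.

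**Figure D4:**
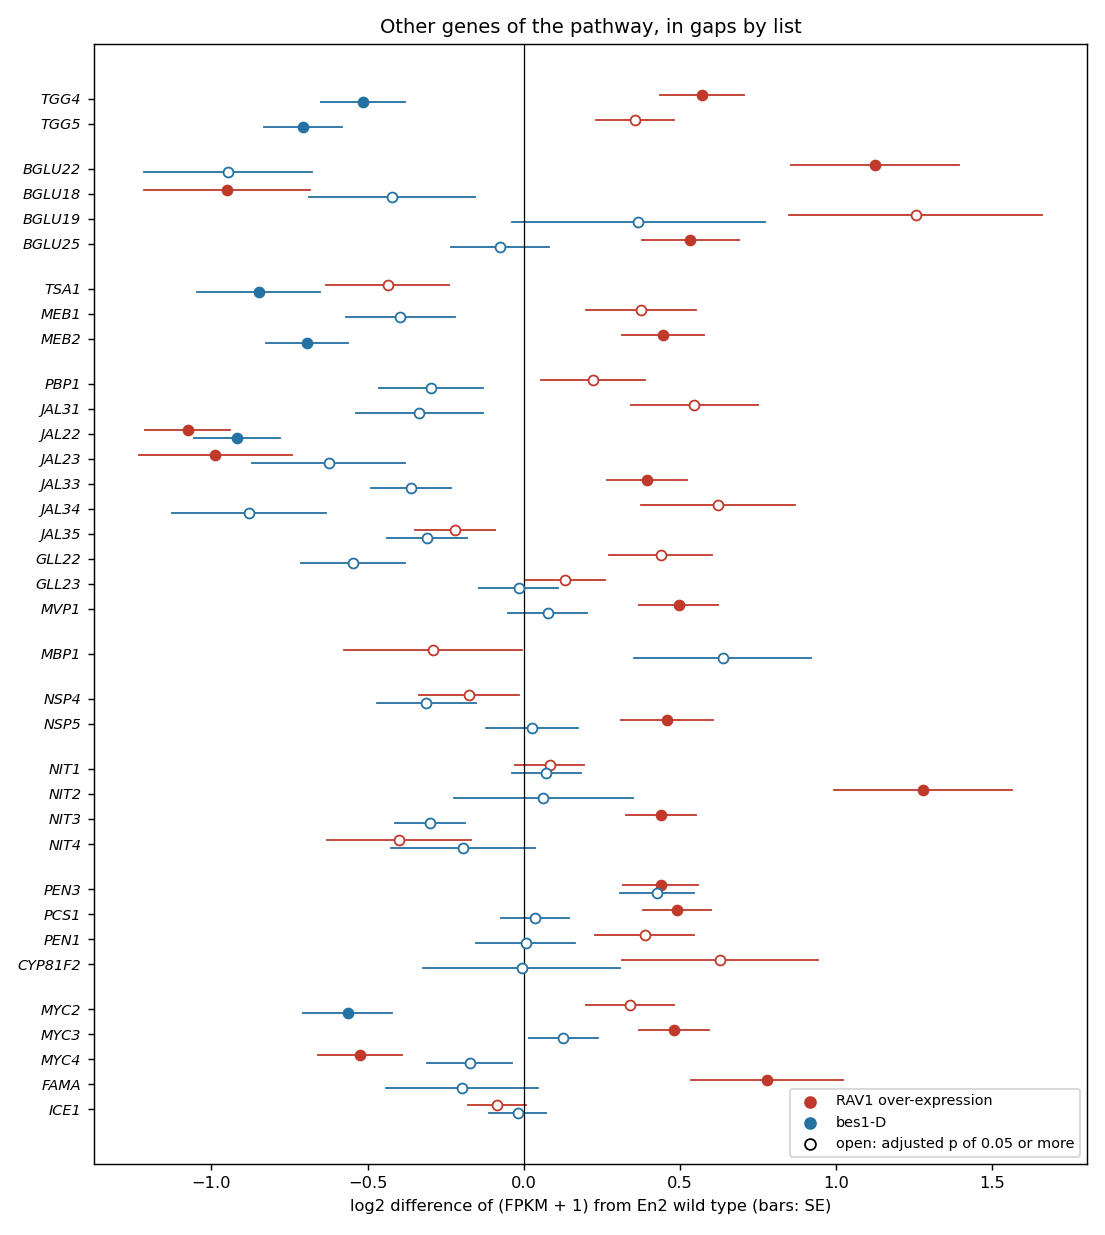
Log2 difference of FPKM + 1 from En2 wild type (horizontal axis) for the 35 tested pathway genes outside the 10, grouped by list, with RAV1 over-expression in red and bes1-D in blue, bars for SE and filled points for an adjusted p under 0.05. BGLU22 and NIT2 lie farthest right among the filled red points (1.13 and 1.28), and JAL22 lies left in both colours (-1.08 and -0.92).

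Over the 9 libraries, the 4 tested loci outside the 10 whose log2(FPKM + 1) was most like that of PYK10 were AT1G06090 (Pearson r = 0.976), AT4G39860 (0.9745), AT5G23830 (0.971) and EMB3120 (AT3G14900, 0.971). AT1G06090 measured 29.4, 24.8 and 19.7 FPKM in wild type, against 28.45, 30.6 and 28.7 in RAV1 over-expression and 18.4, 14.2 and 18.15 in bes1-D. Most like TGG1 were AT1G26665 (r = 0.978), GATA26 (AT4G17570, 0.975), MBD8 (AT1G22310, 0.975) and AT1G79720 (0.972). AT1G26665 measured 27.5, 29.2 and 24.85 FPKM in wild type, against 51.8, 40.6 and 63.3 in RAV1 over-expression and 26.9, 33.8 and 40.2 in bes1-D. These are the highest of 19740 loci over libraries that fall into 3 groups, so they describe the pattern only.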

How the data were processed

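The deposited table gives FPKM values per locus, computed by the authors; per the submitters' processing notes the tools were FastQC 0.10.1, TopHat2 and Cufflinks 2.1.1 with TAIR10, and how reads matching several loci were divided is not given in the sources used here. FPKM are not counts, so no count test was run. Log2(FPKM + 1) was fitted with limma 3.58.1 in R 4.3.3 (group means, trended and robust variance, 9 libraries, 6 residual degrees of freedom) for the 19740 loci that reached 1 FPKM in 3 or more libraries. P-values were two-sided and Benjamini-Hochberg adjusted over all of them, with a threshold of 0.05. Fold changes on this scale understate the change of low genes. The ratio of PYK10 to TGG1 was compared by exact permutation. The fit was also run on simulated data with independent noise, and with changes up and down in equal number in RAV1 over-expression. That setting lacks the shifts over all loci described above, so it cannot show how the fit handles them. Named were the 10 genes, every called gene of the pathway lists, and the 4 loci most like PYK10 and TGG1. The members and lists were chosen with earlier results of these data known. Of 25199 loci, 25135 matched RefSeq (TAIR10.1), whose sequences were read with Biopython 1.88. 1 locus with a blank value was not tested. TGG6 and BGLU20 were not analysed here. Alternatives were a pseudocount of 0.1, no filter, a filter of 5 FPKM, median-of-ratios scaling, quantile normalization, the replicate number as a block, only the groups compared, and each library left out. Those for the pathway lists were chosen after seeing the data.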

Additional observations from a re-analysis of the deposited data

How the results depend on the processing

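Of 480 values of single genes under alternative settings, 444 kept their direction and their side of the threshold, 19 lost a call, 7 gained one and 10 changed sign, none of them a called value. The number of the 10 genes called in RAV1 over-expression was 5 under quantile normalization and 5 with the replicate block, against 3, and 3 to 4 with 1 library left out. In bes1-D it was 1 with no filter on low values and 1 to 2 with 1 library left out, against 2. Between the lines it was 4 to 6 with 1 library left out, against 6. With 1 library left out, values that changed sign ran from -0.91 to 0.073 for ESM1 (positive without En2 wild type replicate 1) and from -0.21 to 0.19 for NAI1 (positive without that library, 0.13, or RAV1 over-expression replicate 3) in RAV1 over-expression. Between the lines they ran from -0.067 to 0.27 for NSP1 (negative without RAV1 over-expression replicates 1 or 2 or bes1-D replicate 3) and from -0.18 to 0.069 for PEN2 (positive without bes1-D replicates 2 or 3). NSP1 was also -0.14 under median-of-ratios scaling and -0.0028 under quantile normalization. The cause was not tested. Over all loci tested, deviations from the group means correlated from -0.0759 to 0.1513 between same-numbered libraries. Such values cannot show whether libraries of the same number shared a sowing or batch, which was not tested. Among the 10 genes NAI1 was highest in replicate 1 and lowest in replicate 3 of every group, while TGG1 showed no such order. PYK10, BGLU21 and NAI2 were also highest in replicate 1 of every group. They were lowest in replicate 3 of wild type and RAV1 over-expression, but in replicate 2 of bes1-D. With the replicate block TGG2 (adjusted p = 0.0219) and NAI2 (0.0335) were called by limma in RAV1 over-expression, and TGG1 between the lines was not (0.0521). Group differences in the log2 ratio of PYK10 to TGG1 were also taken with 1 library left out. From wild type they ran from -0.626 to -0.230 in RAV1 over-expression and from -0.828 to -0.618 in bes1-D. Between the lines they ran from 0.0922 to 0.488. Depth is unknown, and 3 libraries per group limit what could be called.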
